A study of Arabidopsis thaliana with 6 samples.

Results

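The RNA held by DCL4-8:FHA in flowers was set against that held by DCL4-6:FHA in flowers, to see how the bound RNA of each line is shared among substrate loci and along each locus. These libraries, with untagged wild type (WT) flowers as background, are 3 of the 6 samples of the series, and were taken by the tissue and genotype in their labels. DCL4-8:FHA and DCL4-6:FHA are tagged forms of DCL4, named for the dcl4-8 and dcl4-6 alleles, which were expressed from the DCL4 promoter in dcl4-2 mutant plants of the Columbia ecotype; WT carried no tag and its own DCL4. The changes in the proteins, the age of the flowers and the number of plants pooled are not given in the sources used here. RNA was extracted after immunoprecipitation and sequenced, and coverage was deposited for 10 loci. Each group has 1 library, so no difference has a replicate check, no test was made, and every interval given is a 95% interval for counting error only.

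Small interfering RNAs of plants are made from long double-stranded RNA by Dicer-like enzymes, and DCL4 makes those of TAS transcripts and of long hairpins. Some of its substrates are fold-back transcripts that pair with themselves. Others are TAS transcripts, which a microRNA marks for cleavage and the polymerase RDR6 copies into double-stranded RNA; the resulting trans-acting small RNAs are cut in steps from the cleavage point and silence other genes, among them auxin response factors in the case of TAS3.

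The loci are of both kinds. The fold-back class holds the inverted repeats IR71 (chromosome 3, positions 1963599 to 1970598) and IR2039 (chromosome 3, 16158977 to 16161019) and the young microRNA hairpin miR822 (MIR822, AT5G03552, chromosome 5, 897019 to 897355). The TAS class holds 7 noncoding transcripts. TAS1a (AT2G27400), TAS1b (AT1G50055), TAS1c (AT2G39675) and TAS2 (AT2G39681) are targets of miR173, TAS3a (AT3G17185) and TAS3b (AT5G49615) of miR390, and TAS4 (AT3G25795) of miR828. Positions are on TAIR10, as the deposited tables give them.

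The microRNAs that mark the TAS transcripts, and both strands of the miR822 duplex, are shown because the profiles below are measured from their sites. The sequences are from the RefSeq TAIR10.1 assembly, 5′ to 3′ in DNA letters, and capitals mark the seed (bases 2 to 8).
miR173-5p: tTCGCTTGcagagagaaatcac
miR390a-5p: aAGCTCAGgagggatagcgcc
miR822-5p: tGCGGGAAgcatttgcacatg
miR822-3p: tGTGCAAAtgctttctacagg

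The best match of miR173 in each of its targets follows, 5′ to 3′ on the transcript, with paired bases in capitals. The cut falls opposite bases 10 and 11 of the microRNA, and distances from the cut are counted from the first base 3′ of it.
TAS1a site: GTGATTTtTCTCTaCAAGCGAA
TAS1b site: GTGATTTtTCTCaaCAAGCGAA
TAS1c site: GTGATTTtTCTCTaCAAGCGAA
TAS2 site: GTGATTTtTCTCTcCAAGCGAA

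Coverage was in RPM (reads scaled to library size), and every value was a whole multiple of the value of 1 read, which gave a total of 11255618 reads in the DCL4-8:FHA library, 15786416 in the DCL4-6:FHA library and 15861072 in the WT library. On the 10 loci lay 32074 reads in DCL4-8:FHA, 3243 in DCL4-6:FHA and 9 in WT. As RPM these are 2850 in DCL4-8:FHA, 205 in DCL4-6:FHA and 0.567 in WT. The loci thus took 13.9 times as much of the DCL4-8:FHA library as of the DCL4-6:FHA library (13.3 to 14.4). Recovery by the immunoprecipitation, abundance of the transcripts and holding by the protein cannot be told apart in this total. For that reason each line is described mainly by shares of its own reads, which a factor common to a library does not move. Differences between the lines in the abundance of single transcripts can still move these shares, which was not tested.

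The classes took different shares of the bound RNA in the lines. TAS transcripts took 73.8% of the reads of the 10 loci in DCL4-8:FHA (73.2 to 74.3%) and 18.4% in DCL4-6:FHA (17.0 to 19.9%). Fold-back transcripts took 26.2% in DCL4-8:FHA and 81.6% in DCL4-6:FHA. Seedling libraries had the same order, with 90.0% of the reads on TAS loci in DCL4-8:FHA and 15.9% in DCL4-6:FHA. In WT flowers 6 of the 9 reads lay on TAS loci. With each read stack (reads with the same estimated start) counted once, the TAS share was 30.8% in DCL4-8:FHA and 17.7% in DCL4-6:FHA. Stacks at a locus are bounded by its length, and they held a smaller part of the reads in DCL4-8:FHA at each covered locus but miR822. The part of this bound, of this unequal recovery and of repeated reads was not tested.

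**Figure D1:**
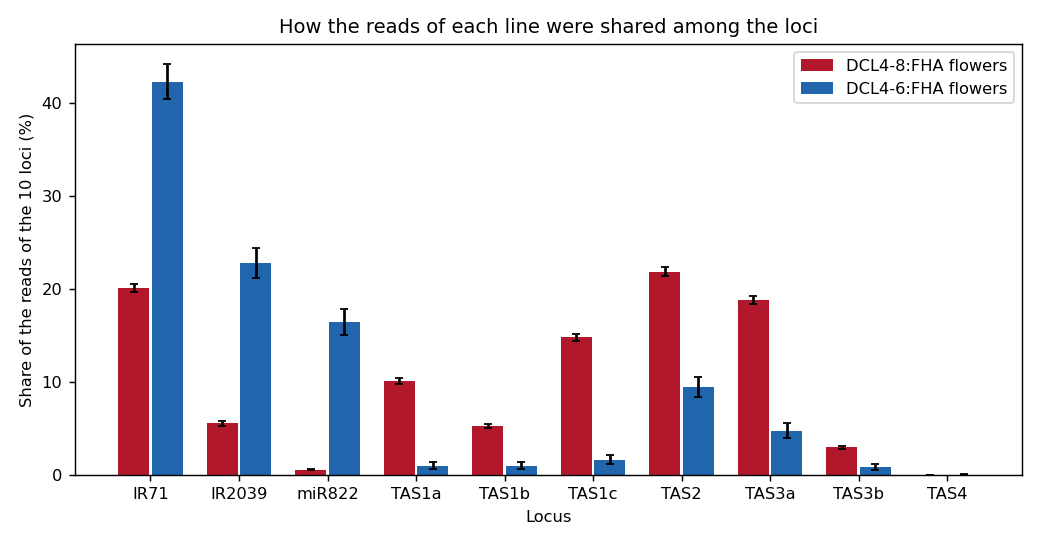
Share of the reads of the 10 loci (%, vertical axis) at each locus (horizontal axis) in DCL4-8:FHA flowers and DCL4-6:FHA flowers, 1 library each; error bars are exact 95% intervals for counting error. The bars of IR71, IR2039 and miR822 are lower in DCL4-8:FHA, those of the 6 TAS loci with reads are higher, and TAS4 has 0 reads in both.

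At the level of single loci, 9 had reads and 8 of these (88.9%) were at least 2-fold higher in DCL4-8:FHA with an interval that excluded 1, while 1 (11.1%) was lower. With so many loci called, a call says little about a locus, and its place relative to the others is given instead. The median log2 ratio of DCL4-8:FHA over DCL4-6:FHA was 5.68 over the 9 loci, 6.05 over the 6 TAS loci and 1.76 over the 3 fold-back loci. TAS4 had 0 reads in all 3 flower libraries, which allows a mean coverage of up to 0.0115 RPM in DCL4-8:FHA, 0.00823 RPM in DCL4-6:FHA and 0.00819 RPM in WT.

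**Figure D2:**
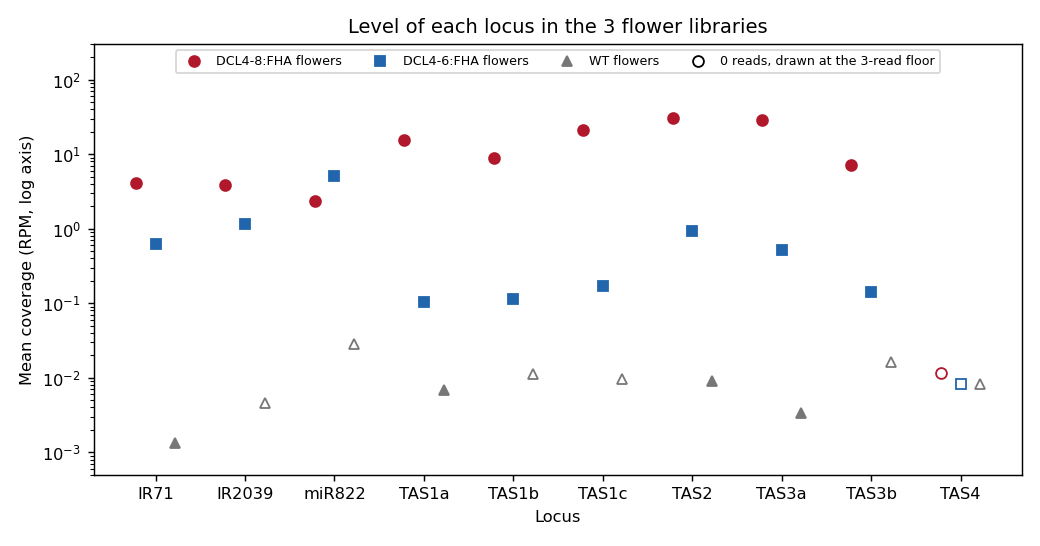
Mean coverage (RPM, log axis) of each locus in DCL4-8:FHA, DCL4-6:FHA and WT flowers, 1 library each; open symbols are libraries with 0 reads at a locus, drawn at the level of 3 reads. miR822 is the only locus of the 9 with reads at which DCL4-8:FHA, at 2.38 RPM, lies below DCL4-6:FHA, at 5.02 RPM.

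Among fold-back loci, the order of mean coverage differed between the lines, with IR71 highest in DCL4-8:FHA and miR822 highest in DCL4-6:FHA. IR71 had 6457 reads in DCL4-8:FHA, 1372 in DCL4-6:FHA and 3 in WT, with a mean coverage of 4.10, 0.621 and 0.00135 RPM. It made up 20.1% of the reads of the 10 loci in DCL4-8:FHA and 42.3% in DCL4-6:FHA. IR71 was thus higher in DCL4-8:FHA per library read, 6.60-fold (6.13 to 7.10), and smaller as a share. Its arms are nearly identical, so the read numbers count many reads at both arms. Of its positions, 19.6% are covered only by stretches that occur once in the genome. At these positions the log2 ratio was 2.34, and for the maximum over positions it was 2.03. Both lie below the log2 ratio of the whole locus, 2.72, and its interval (2.62 to 2.83).

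IR2039 had 1780 reads in DCL4-8:FHA, 739 in DCL4-6:FHA and 0 in WT, or 3.87 and 1.14 RPM in the tagged lines. The ratio was 3.38 (3.10 to 3.69), and the share of the 10 loci was 5.55% in DCL4-8:FHA and 22.8% in DCL4-6:FHA. As with IR71, the level was higher and the share smaller in DCL4-8:FHA.

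miR822 was lower in DCL4-8:FHA per library read and as a share. It had 181 reads in DCL4-8:FHA, 534 in DCL4-6:FHA and 0 in WT, or 2.38 and 5.02 RPM in the tagged lines, a ratio of 0.475 (0.399 to 0.563). Its share of the 10 loci was 0.564% in DCL4-8:FHA and 16.5% in DCL4-6:FHA. Within the fold-back class alone, miR822 took 2.15% in DCL4-8:FHA (1.80 to 2.55%) and 20.2% in DCL4-6:FHA (18.5 to 21.9%), while IR71 took 76.7% and 51.9%. Within this class the share of miR822 was thus also lower in DCL4-8:FHA. With each read stack counted once, the ratio per library read was 0.851 in place of 0.475, which is no longer 2-fold lower.

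The TAS loci did not all gain to the same degree. TAS1a, TAS1b and TAS1c, which have the same trigger and closely related sequences, together made up 40.8% of TAS reads in DCL4-8:FHA (40.2 to 41.5%) and 19.0% in DCL4-6:FHA (16.0 to 22.4%). TAS2, which lies beside TAS1c on chromosome 2, made up 29.6% in DCL4-8:FHA (29.0 to 30.2%) and 51.1% in DCL4-6:FHA (46.9 to 55.1%). The TAS3 pair made up 29.5% in DCL4-8:FHA and 29.9% in DCL4-6:FHA, with overlapping intervals. In seedlings TAS1 was again higher in DCL4-8:FHA, with 45.1% in DCL4-8:FHA and 22.7% in DCL4-6:FHA, and TAS2 lower, with 44.9% and 68.8%. TAS3 took 9.96% in DCL4-8:FHA seedlings and 8.59% in DCL4-6:FHA seedlings, with overlapping intervals. There the DCL4-6:FHA level of TAS1b, 0.0637 RPM from 19 reads, was not above that of WT, 0.122 RPM from 4 reads.

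**Figure D3:**
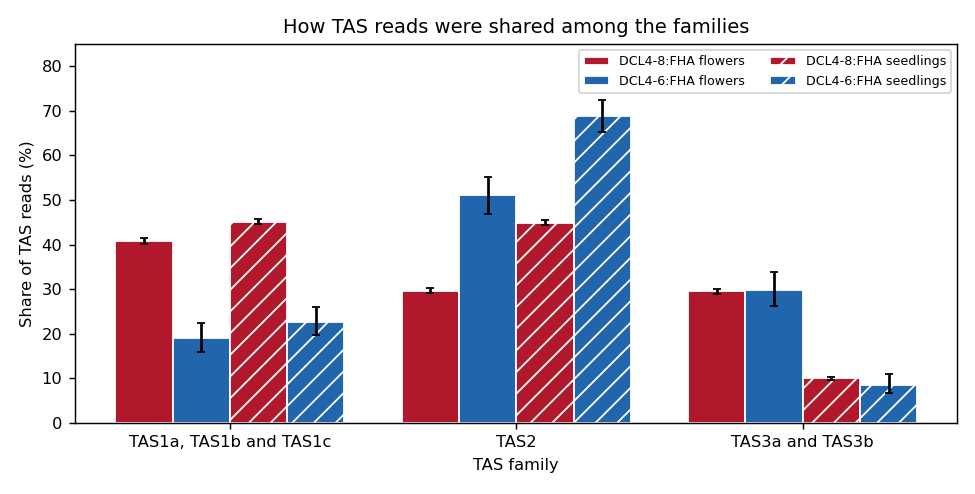
Share of TAS reads (%, vertical axis) taken by TAS1a, TAS1b and TAS1c together, by TAS2, and by TAS3a and TAS3b together, in DCL4-8:FHA and DCL4-6:FHA, in flowers (plain bars) and seedlings (hatched); 1 library per bar, error bars are exact 95% intervals for counting error. In both tissues the TAS1 bar of DCL4-8:FHA is above that of DCL4-6:FHA and the TAS2 bar is below it.

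By locus, TAS1a had 3240 reads in DCL4-8:FHA, 31 in DCL4-6:FHA and 2 in WT. TAS1b had 1679, 30 and 0 reads in DCL4-8:FHA, DCL4-6:FHA and WT, and TAS1c had 4743, 53 and 0. The shares of the 10 loci were 10.6, 5.68 and 9.06 times those of DCL4-6:FHA at TAS1a, TAS1b and TAS1c. TAS2 had 7009 reads in DCL4-8:FHA, 305 in DCL4-6:FHA and 3 in WT, and its share was 2.32 times that of DCL4-6:FHA. It was the TAS locus with the most reads in both lines. TAS3a had 6041, 153 and 1 reads and TAS3b 943, 26 and 0, with shares 4.00 and 3.69 times those of DCL4-6:FHA. All 6 exceed 1 in flowers, and TAS2 is the lowest of them. In seedlings the share of TAS3b was 0.592 times that of DCL4-6:FHA, from 10 reads in DCL4-8:FHA and 2 in DCL4-6:FHA. Over WT, TAS1a in DCL4-6:FHA was 15.6-fold higher (3.96 to 134) and TAS3b at least 8.66-fold higher, with the WT level of TAS3b set to 3 reads. With 31, 30, 53 and 26 reads, TAS1a, TAS1b, TAS1c and TAS3b in DCL4-6:FHA give profiles of low precision.

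Profiles were then compared as shares of the coverage of a locus, so that level plays no part. Of 157 bins of 50 nt with at least 20 reads in the lines together, 27 (17.2%) had a share at least 2-fold higher in DCL4-8:FHA and 7 (4.46%) one at least 2-fold lower. With an interval that also excluded 1, 3 were higher (1.91%) and 4 lower (2.55%). The higher ones were 2 of the 11 bins of TAS2 and 1 of the 82 bins of IR71, and the lower ones were 1 each in IR71, TAS1a, TAS1b and TAS3b. The bins of IR71 are not separate observations, since a read of both arms falls in mirrored bins. The limit of 20 reads was set on the sum of both lines, and DCL4-8:FHA had more reads at each covered locus but miR822. A bin could thus be counted from DCL4-8:FHA reads alone. The TAS2 bin from 16539483 and the TAS3b bin from 20134599 each held 46 DCL4-8:FHA reads against 0 DCL4-6:FHA reads. Both are among the 27 higher bins. The part of this limit in the numbers 27 and 7 was not tested.

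The profiles shared most of their shape. The overlap, which is the sum over bins of the smaller of the 2 shares, was 93.3% at TAS3a, 92.7% at miR822, 87.9% at IR2039, 87.0% at TAS2 and 81.4% at IR71. It was 79.6% at TAS1c, 78.7% at TAS1a, 78.5% at TAS1b and 75.3% at TAS3b, the loci with few DCL4-6:FHA reads. Pearson's r over the bins of a locus ran from 0.845 at TAS1b to 0.993 at TAS3a, as a description over bins that share reads. The highest bin was the same in both lines at IR71, miR822, TAS1a, TAS1c, TAS3a and TAS3b.

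Along the miR173 targets all but a trace of the coverage lay 3′ of the cut in both lines, and the stretch next to the cut held a larger share in DCL4-8:FHA at each of the 4 loci, within counting error. The first 63 nt, which is 3 steps of 21 nt, held 9.62% of the coverage of TAS1a in DCL4-8:FHA and 3.10% in DCL4-6:FHA. At TAS1b it held 13.1% in DCL4-8:FHA and 2.07% in DCL4-6:FHA, and at TAS1c 12.5% in DCL4-8:FHA and 2.95% in DCL4-6:FHA. At TAS2 it held 6.14% in DCL4-8:FHA and 3.68% in DCL4-6:FHA. DCL4-8:FHA was higher at 4 of 4 loci, but the intervals of the ratios all included 1: 0.532 to 118 at TAS1a, 0.698 to 156 at TAS1b, 0.916 to 27.5 at TAS1c and 0.941 to 3.43 at TAS2. The difference was thus not detectable at this depth in flowers for any single locus. In seedlings the ratio was above 1 with its interval at TAS2, 4.85% in DCL4-8:FHA and 0.901% in DCL4-6:FHA (ratio 5.38, 2.19 to 20.7), and at TAS1a (ratio 3.65, 1.07 to 32.0). The limit of 63 nt was chosen after the profiles were seen, which these intervals do not allow for.

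The far end of TAS2 held a larger share in DCL4-8:FHA in flowers, with an interval of the ratio that excluded 1. The limit of 252 nt was chosen after the profiles were seen, and the intervals do not allow for that choice. Beyond 252 nt, or 12 steps, from the cut lay 10.8% of TAS2 coverage in DCL4-8:FHA (755 reads) and 2.14% in DCL4-6:FHA (7 reads), a ratio of 5.04 (2.27 to 11.7). The bin with the largest gain in DCL4-8:FHA lay there, at 16539583 to 16539632, with 3.11% in DCL4-8:FHA and 0.622% in DCL4-6:FHA. It held 218 reads in DCL4-8:FHA and only 2 in DCL4-6:FHA (interval of the share 0.0795 to 2.35%). Seedlings gave 5.23% in DCL4-8:FHA and 1.08% in DCL4-6:FHA, a ratio of 4.85 (2.07 to 15.0). At TAS1a, TAS1b and TAS1c the interval of this ratio in flowers included 1. In seedlings the far end of TAS1a held a smaller share in DCL4-8:FHA, 13.0% in DCL4-8:FHA and 22.3% in DCL4-6:FHA (ratio 0.582, 0.370 to 0.969), and the intervals of TAS1b and TAS1c included 1. The bin at 16539783 to 16539832, the highest of TAS2 in DCL4-6:FHA, held 19.3% in DCL4-8:FHA (18.4 to 20.3%) and 29.7% in DCL4-6:FHA (24.8 to 35.3%).

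At TAS1b the highest bin of DCL4-6:FHA, 18549453 to 18549502, held 17.4% of the coverage in DCL4-8:FHA and 38.5% in DCL4-6:FHA, from 12 reads (22.7 to 59.4%). At TAS1c the bin with the most coverage in both lines, 16537687 to 16537736, held 23.3% in DCL4-8:FHA and 34.4% in DCL4-6:FHA. At all 4 loci the median base of the coverage lay closer to the cut in DCL4-8:FHA. It lay 141 nt from the cut in DCL4-8:FHA and 153 nt in DCL4-6:FHA at TAS1a, and 146 and 168 nt at TAS1b. At TAS1c it lay 166 nt from the cut in DCL4-8:FHA and 176 nt in DCL4-6:FHA, and at TAS2 133 and 138 nt. These medians carry no interval.

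The other bins of largest gain and loss in DCL4-8:FHA rest on few DCL4-6:FHA reads. At TAS1a the gain lay at 11721988 to 11722037, with 18.6% in DCL4-8:FHA and 9.95% in DCL4-6:FHA, and the loss at 11721888 to 11721937, with 12.7% and 21.1%. The gain of TAS1b lay at 18549603 to 18549652, with 13.5% in DCL4-8:FHA and 3.14% in DCL4-6:FHA. That of TAS1c lay at 16537837 to 16537886, with 12.4% in DCL4-8:FHA and 2.95% in DCL4-6:FHA. At all 3 TAS1 loci the bin of largest gain lay nearer the miR173 site than the bin of largest loss.

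**Figure D4:**
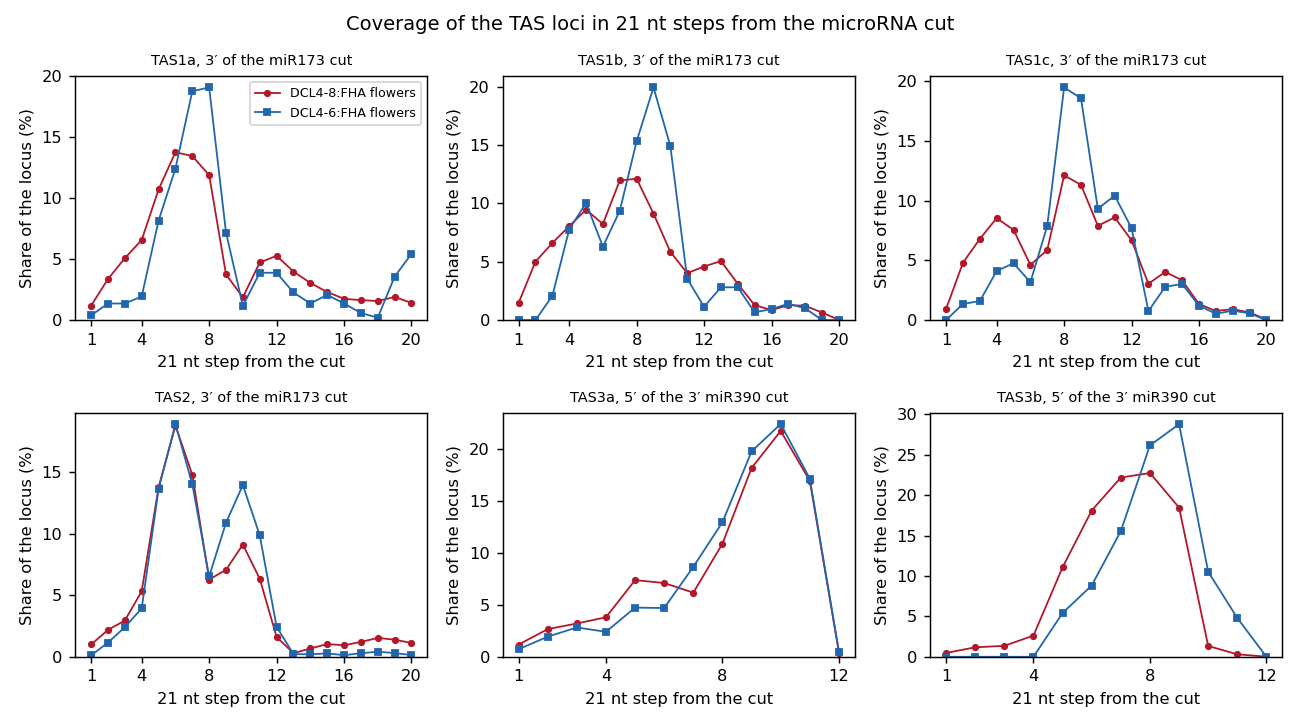
Share of the coverage of a TAS locus (%, vertical axis) in successive 21 nt steps from the microRNA cut (horizontal axis), for DCL4-8:FHA flowers and DCL4-6:FHA flowers, 1 library each. The first 3 steps of the 4 miR173 targets together hold a larger share in DCL4-8:FHA, but the interval of the ratio includes 1 at each locus. The steps beyond 12 in TAS2 hold 10.8% in DCL4-8:FHA and 2.14% in DCL4-6:FHA.

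At TAS3a and TAS3b the coverage lay between the miR390 sites in both lines, and most of it on the 5′ side of the middle of that stretch. The 3′ side, next to the site that miR390 cuts, held 23.9% of TAS3a in DCL4-8:FHA and 16.4% in DCL4-6:FHA, a ratio of 1.46 (0.988 to 2.27). At TAS3b it held 19.1% in DCL4-8:FHA and 6.57% in DCL4-6:FHA, from 2 reads in DCL4-6:FHA, a ratio of 2.90 (0.677 to 20.6). Both ratios are above 1 and neither could be told from 1 at this depth. At TAS3a the largest gain lay at 5862240 to 5862289, with 14.0% in DCL4-8:FHA and 8.94% in DCL4-6:FHA, and the highest bin of both lines, 5862140 to 5862189, held 45.8% and 48.7%. At TAS3b the bin at 20134549 to 20134598 held 37.2% in DCL4-8:FHA and 18.7% in DCL4-6:FHA, and that at 20134449 to 20134498 held 3.69% and 18.9%, each from 5 reads in DCL4-6:FHA. The highest bin of TAS3b, 20134499 to 20134548, held 52.7% in DCL4-8:FHA and 62.2% in DCL4-6:FHA. Coverage of TAS3a ended at the cut of the 3′ site in DCL4-8:FHA, with 74 reads at 5862352, 16 at 5862353 and 1 at 5862354, and 0 DCL4-6:FHA reads covered these 3 bases. With 153 reads on the locus in DCL4-6:FHA, and 1 read at 5862350 where DCL4-8:FHA had 81, the depth does not show a difference here.

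TAS3a carries the sequence of the small RNAs that target auxin response factor genes as a repeated pair at a spacing of 21 nt. The copies shown are at chr3:5862183-5862203 and chr3:5862204-5862224 on the plus strand. They were set by the longest exact repeat at that spacing, not by the ends of the small RNAs. The copies share a run of 18 nt that is in capitals here.
TAS3a upstream copy: TTTTCTTGACCTTGTAAGgCC
TAS3a downstream copy: TTTTCTTGACCTTGTAAGaCC
The pair held 17.9% of TAS3a coverage in DCL4-8:FHA (16.9 to 18.8%, 1078 reads) and 23.1% in DCL4-6:FHA (16.5 to 30.4%, 35 reads). The intervals overlap.

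Read stacks, which are sets of reads with the same start estimated from a rise of coverage paired with a fall 50 nt later, show which fragments carried the profiles. The largest stack was the same fragment in both lines at TAS2, TAS3a and TAS3b, and also, tied with another stack in DCL4-8:FHA or DCL4-6:FHA, at IR71 and IR2039. At TAS3a it held 1215 reads in DCL4-8:FHA, or 20.1% of the locus, and 32 reads in DCL4-6:FHA, or 20.9%. At TAS3b it held 188 reads in DCL4-8:FHA, or 19.9%, and 7 in DCL4-6:FHA, or 27.1%, and it spans the run that TAS3b shares with the TAS3a pair, shown in capitals. Both fragments are given on the transcript strand.
TAS3a stack at chr3:5862123-5862172, plus strand: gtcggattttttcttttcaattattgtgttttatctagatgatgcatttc
TAS3b stack at chr5:20134497-20134546, plus strand: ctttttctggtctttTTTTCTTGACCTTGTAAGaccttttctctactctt

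At TAS2 the largest stack had overlapping intervals in the lines, and a stack that overlaps it held a smaller share in DCL4-6:FHA. The largest, at 16539864 to 16539913, held 502 reads in DCL4-8:FHA, or 7.16% of TAS2 (6.57 to 7.79%), and 26 in DCL4-6:FHA, or 8.52% (5.64 to 12.2%). The stack at 16539881 to 16539930 held 451 reads in DCL4-8:FHA, or 6.43% (5.87 to 7.03%), and 5 in DCL4-6:FHA, or 1.64% (0.534 to 3.78%). Capitals mark the stretch that both fragments hold, and both are given on the transcript strand.
TAS2 stack at chr2:16539864-16539913, minus strand: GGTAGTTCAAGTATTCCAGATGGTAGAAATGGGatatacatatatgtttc
TAS2 stack at chr2:16539881-16539930, minus strand: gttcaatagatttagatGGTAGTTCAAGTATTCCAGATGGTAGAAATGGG

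Stacks of many reads touch the comparison of levels, because reads were not marked by molecular identifiers and copies made in amplification cannot be told from separate fragments. Counted as start positions rather than reads, and per library read, DCL4-8:FHA had 7.74 times the positions of DCL4-6:FHA at TAS1a, 9.82 times at TAS1b and 6.47 times at TAS1c. The ratio was 5.96 at TAS3b, 3.47 at TAS2, 3.02 at TAS3a, 2.87 at IR71, 1.93 at IR2039 and 0.851 at miR822. By this count each TAS locus with reads was above each fold-back locus, with TAS3a at 3.02 and IR71 at 2.87 next to each other. The number of positions of a locus is bounded by its length. Stacks also held a smaller part of the reads in DCL4-8:FHA at each locus with reads but miR822. That part was 62.9% in DCL4-8:FHA and 90.4% in DCL4-6:FHA at TAS1a, 52.8% and 76.9% at TAS1b, and 61.5% and 86.9% at TAS1c. At miR822 it was 91.2% and 90.3%. The part of this bound, of this unequal recovery and of copies in these ratios was not tested. Of the positions used in DCL4-6:FHA, between 52.5% at miR822 and 82.6% at TAS1a were also used in DCL4-8:FHA. In the other direction the order changed, from 10.5% at TAS1b and 15.0% at TAS1a to 86.5% at miR822. These shares depend on how many positions each line used. DCL4-8:FHA used 37 and DCL4-6:FHA 61 at miR822, and they used 127 and 23 at TAS1a.

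IR71 folds into a long duplex with a loop of 237 nt, and the lines differed in how far from the loop their coverage lay. Within 400 nt of the loop lay 18.0% of IR71 coverage in DCL4-8:FHA and 27.9% in DCL4-6:FHA, a ratio of 0.645 (0.557 to 0.746). From 2001 to 2800 nt lay 40.5% in DCL4-8:FHA and 26.2% in DCL4-6:FHA, a ratio of 1.55 (1.35 to 1.78). Both windows were chosen after the profiles were seen, and the intervals do not allow for that choice. When each read that matches several places was split between them, the inner shares were 21.6% and 31.8% and the outer ones 36.0% and 22.7%. In seedlings the inner share went the other way, with 32.7% in DCL4-8:FHA and 21.6% in DCL4-6:FHA, and the outer shares were 28.3% and 27.5%. The bin with the largest loss in DCL4-8:FHA, 1966699 to 1966748 within 400 nt of the loop, held 1.48% in DCL4-8:FHA and 3.23% in DCL4-6:FHA. For both lines the highest bin, 1966799 to 1966848, also lies within 400 nt of the loop and held 2.33% in DCL4-8:FHA and 3.92% in DCL4-6:FHA. Far from the loop, the bin with the largest gain, 1969599 to 1969648, held 2.12% in DCL4-8:FHA and 0.912% in DCL4-6:FHA.

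Profiles of IR2039 and miR822 overlapped by 87.9% and 92.7%, and a stretch of IR2039 had a ratio whose interval excluded 1. The lower-coordinate arm of IR2039 held 54.8% of its coverage in DCL4-8:FHA and 51.2% in DCL4-6:FHA, a ratio of 1.07 (0.949 to 1.21). On the lower arm, positions 16159354 to 16159503 held 6.33% in DCL4-8:FHA and 3.17% in DCL4-6:FHA, a ratio of 1.999 (1.29 to 3.34); of the 12 stretches of 150 nt compared, it is the one whose interval excluded 1. The bin of largest gain in DCL4-8:FHA overlaps that stretch, at 16159477 to 16159526, with 4.49% in DCL4-8:FHA and 2.42% in DCL4-6:FHA (ratio 1.85, 1.10 to 3.27). The bin at 16160527 to 16160576 on the other arm held 3.52% and 1.92% (ratio 1.83, 1.03 to 3.61). None of the 25 bins of IR2039 was at least 2-fold apart with an interval that excluded 1. No interval here is adjusted for the number of stretches or bins compared. The largest loss lay at 16160377 to 16160426, with 7.28% in DCL4-8:FHA and 9.51% in DCL4-6:FHA. Its highest bin, which was 16159827 to 16159876 in DCL4-8:FHA and the next one in DCL4-6:FHA, held 9.04% in DCL4-8:FHA and 10.8% in DCL4-6:FHA. Its arms were covered unevenly next to the centre of the repeat: the first 150 nt of the lower arm held 20.8% in DCL4-8:FHA and 23.3% in DCL4-6:FHA, and those of the upper arm 1.86% and 2.95%.

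The 3′ arm of the miR822 hairpin held 60.8% of its coverage in DCL4-8:FHA (53.3 to 67.9%) and 61.8% in DCL4-6:FHA (57.5 to 65.9%). The bases of miR822-3p held 19.2% in DCL4-8:FHA and 23.6% in DCL4-6:FHA, and those of miR822-5p 1.95% and 1.74%. The highest bin of both lines, 897019 to 897068, held 39.8% in DCL4-8:FHA and 33.4% in DCL4-6:FHA, and the next one 21.5% and 28.4%. A stack at 897028 to 897077 held 31 reads in DCL4-8:FHA, or 17.1% of the locus (11.9 to 23.4%), and 35 in DCL4-6:FHA, or 6.56% (4.61 to 8.998%). It is shown with the next stack of that arm, and capitals mark bases of miR822-3p. In DCL4-6:FHA the largest stack lay on the other arm, at 897228 to 897277, with 19 reads in DCL4-8:FHA, or 10.5%, and 78 in DCL4-6:FHA, or 14.6%.
miR822 stack at chr5:897028-897077, minus strand: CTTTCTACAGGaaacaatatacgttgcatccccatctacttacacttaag
miR822 stack at chr5:897045-897094, minus strand: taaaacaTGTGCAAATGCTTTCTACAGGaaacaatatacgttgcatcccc

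**Figure D5:**
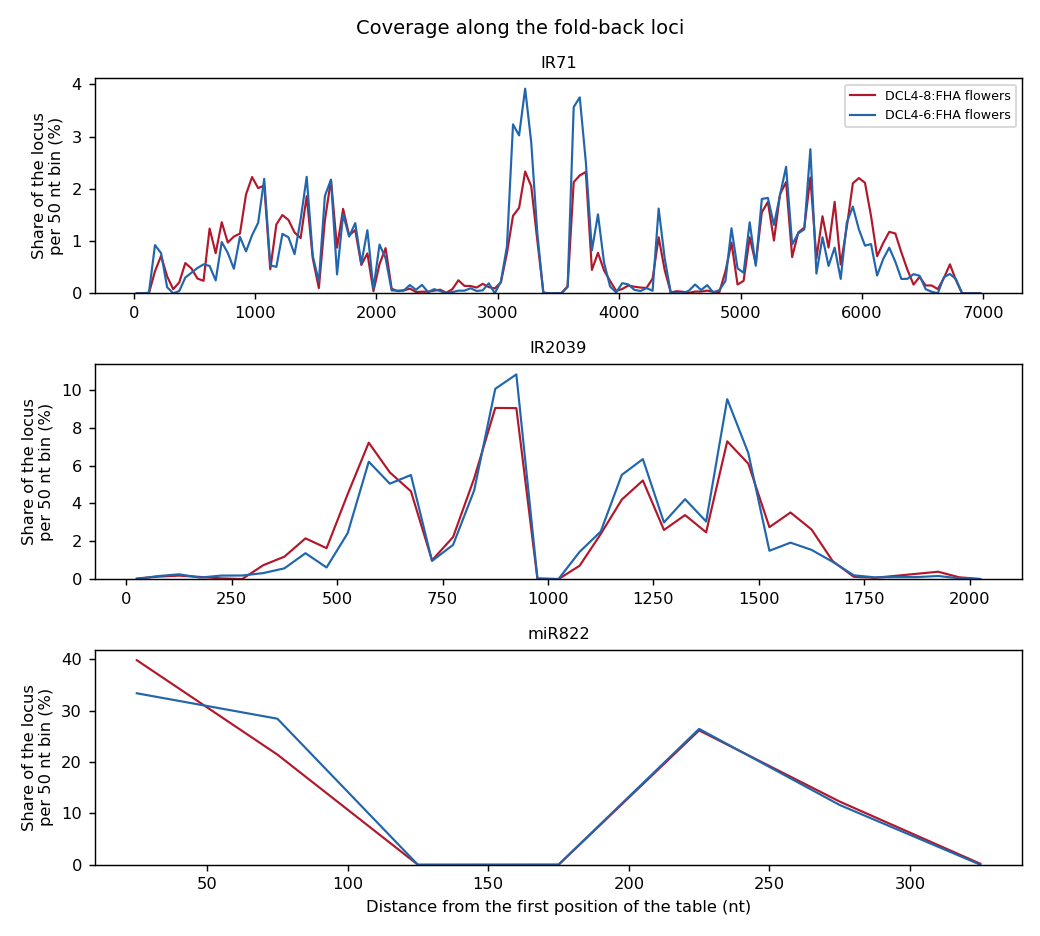
Share of the coverage of a fold-back locus per 50 nt bin (%, vertical axis) against distance from the first position of its table (nt, horizontal axis), in DCL4-8:FHA flowers and DCL4-6:FHA flowers, 1 library each. The peaks of IR71 within 400 nt of the loop on either side, in the middle of the axis, are lower in DCL4-8:FHA. Bins at the edge of the loop are not all lower. The lines run close together in IR2039 and miR822.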

How the data were processed

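RNA from immunoprecipitates of 3 flower samples was sequenced as single-end reads of 50 nt, per the labels. The authors deposited coverage signal per position, scaled to library size (RPM), for 10 loci. The build TAIR10 and the tools HISAT2 2.0.5 and bedtools 2.25.0 are named, with no role, per the submitters' processing notes. Strand and the handling of reads with several places are not given in the sources used here.

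From these values the reads of a locus were taken as its summed coverage, as whole reads per base, divided by 50. Values lay within 5.59e-09 of whole reads in flowers. Coverage takes no count model, and with 1 library per group there is no test. Shares carry exact Clopper-Pearson intervals and ratios exact conditional intervals (Python 3.11.15, scipy 1.17.1), for which reads of several places in IR71 and IR2039 were counted once. Where a library had 0 reads, 3 reads were the floor. The intervals were tested on simulated counts drawn independently, which is the model that they assume. That simulation held no stacks of repeated reads, so it does not show how the intervals behave with them. Sites, arms (blastn 2.17.0) and sequences came from the RefSeq assembly TAIR10.1. Positions were read as counted from 1, which gave the better match between mirrored bases of the IR71 arms (r 0.985 over 909 pairs in DCL4-6:FHA flowers). Exact read starts could not be recovered from coverage, so read stacks were used.

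All 10 loci were named, with the highest bin of each line and the bins of largest gain and loss at each locus with at least 20 reads in both lines. The loci, classes and measures were chosen with earlier results of these data known. The windows of 63, 252 and 400 nt and 2001 to 2800 nt, the sides of TAS3 and the stacks were chosen after the profiles were seen. Alternatives tried were the maximum over positions, unique positions, shares in place of library scaling, other folds and bins, loci left out, division among places, positions counted from 0, WT subtracted, and each stack position counted once. Seedling libraries were used for side-by-side values only.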

Additional observations from a re-analysis of the deposited data

Results flagged for a closer look

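Several results had opposite directions in flowers and seedlings, and no difference between tissues was tested, since each line has 1 library per tissue. The log2 ratio of DCL4-8:FHA over DCL4-6:FHA at IR71 was 2.72 in flowers and -1.12 in seedlings. At miR822 it was -1.07 in flowers and 0.47 in seedlings. The share of IR71 coverage within 400 nt of the loop was 0.645 times as large in DCL4-8:FHA as in DCL4-6:FHA in flowers and 1.52 times as large in seedlings. The share of the 10 loci taken by TAS3b was 3.69 times that of DCL4-6:FHA in flowers and 0.592 times in seedlings, from 10 and 2 seedling reads. The seedling shares had overlapping intervals, 0.0136 to 0.0521% in DCL4-8:FHA and 0.0074 to 0.221% in DCL4-6:FHA. The seedling levels, 0.0391 RPM in DCL4-8:FHA and 0.00958 RPM in DCL4-6:FHA, lay below the WT floor of 3 reads, 0.130 RPM. The 3′ side of TAS3b between the miR390 sites had a ratio of 2.90 in flowers and 0.623 in seedlings, from the same 10 and 2 seedling reads. The lower arm of IR2039 had a ratio of 1.07 in flowers and 0.949 in seedlings. The intervals of the ratios of the 3′ side of TAS3b and of this arm included 1. The TAS3 share of TAS reads in DCL4-8:FHA minus that in DCL4-6:FHA was -0.360 points in flowers and 1.37 points in seedlings, with overlapping intervals.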

How the results depend on the processing

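On the scale of shares of the 10 loci, IR71 and IR2039 were lower in DCL4-8:FHA in place of higher, with log2 ratios of -1.07 and -2.04, which follows from dividing by a total that differs 13.9-fold; 3 loci were then lower. The share of reads on TAS loci in DCL4-8:FHA and DCL4-6:FHA was 91.5% and 22.5% per position, 79.8% and 21.7% with reads divided among places, 92.3% and 32.0% without IR71, 78.1% and 23.9% without IR2039, and 66.4% and 9.96% without TAS2. DCL4-8:FHA was above DCL4-6:FHA under each of these. With each stack position counted once, a measure added after the data were seen, the shares were 30.8% and 17.7%, the number of loci higher was 7, with IR2039 at 1.93-fold, the number lower was 0, and the difference between class medians was 1.69, against 4.29 as reported; the cause was not tested. That difference was 3.64 with class sums and 5.70 without IR71. Bins with a share at least 2-fold higher in DCL4-8:FHA numbered 53 at 25 nt and 16 at 100 nt, and with at least 50 reads in a bin 3 were lower. No paired analysis was possible because each group has 1 library. Depth limits the profiles of TAS1a, TAS1b, TAS1c and TAS3b in DCL4-6:FHA, with 26 to 53 reads each.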
